A study of Mus musculus with 6 samples.

Results

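The Mir192 and Mir194-2 hairpins form one miRNA cluster of the mouse genome, and the Mir215 and Mir194-1 hairpins form its paralog on another chromosome. Their members were taken by name, as the sense rows of Mir192, Mir194-1, Mir194-2 and Mir215, both arms, which gave 8 of the 1102 rows of the deposited count files, 1 for each arm of the 4 hairpins. No antisense row was listed for any of them. The data are 6 small RNA libraries of heart. The mice were males of the inbred strain C57BL/6J, wild type and aged 18 weeks, with no treatment and no second group. The labels call the tissue whole heart, but their protocol describes frozen tips of the ventricles. The libraries are called hearts 1 to 6 after the numbers in the labels, which do not say that each came from its own mouse. The libraries held between 3966167 and 6007319 counts, so 1 read corresponded to between 0.166 and 0.252 CPM (reads per 1000000 counts of a library). The heart muscle miRNAs miR-1a-3p, miR-133a-3p, miR-208a-3p and miR-499-5p were listed in all libraries and together held between 94127 and 106440 CPM.

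MicroRNAs are cut from a hairpin precursor, and either arm of the hairpin, 5p or 3p, can be loaded into the silencing complex, where bases 2 to 8 (the seed) pair with target transcripts. miR-192, miR-194 and miR-215 are best known from gut, liver and kidney, where hepatocyte nuclear factors drive their transcription, and as miRNAs that respond to p53. The heart is not among the tissues they are known for. miR-192-5p and miR-215-5p share a seed and are treated as one family, while miR-194-5p has a different seed and is made from both clusters.

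The mature sequences show which members can be told apart by their reads, and capitals mark the seed. They are those of RefSeq on GRCm38.p6 and match the coordinates of the files.
miR-192-5p: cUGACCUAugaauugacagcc
miR-215-5p: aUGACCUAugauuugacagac
miR-194-5p (both copies): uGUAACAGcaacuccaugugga
miR-192-3p: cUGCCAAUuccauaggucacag
miR-215-3p: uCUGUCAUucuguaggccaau
miR-194-1-3p: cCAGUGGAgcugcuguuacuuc
miR-194-2-3p: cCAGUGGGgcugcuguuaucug

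miR-192-5p and miR-215-5p have the same seed, UGACCUA, and are identical at 18 of 21 bases. Counted from the 5′ end, with the base of miR-192-5p first, they differ at C1A, A12U and C20A. Among 1679 mature names in the RefSeq table, these were the only 2 with this seed, and miR-194-5p was the only one with GUAACAG. The 5p arms of Mir194-1 and Mir194-2 are identical over all 22 bases, so a read that ends within them fits both loci. Their 3p arms differ at 4 of 22 bases, A8G, C19U, U20C and C22G with the base of miR-194-1-3p first, and the first of these lies in the seed. The 3p arms of miR-192 and miR-215 have different seeds.

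The hairpins are shown with both mature arms in capitals, since the bases around miR-194-5p are where its copies part.
Mir192: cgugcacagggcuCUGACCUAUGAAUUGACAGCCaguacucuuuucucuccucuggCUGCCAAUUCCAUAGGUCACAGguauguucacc
Mir194-2: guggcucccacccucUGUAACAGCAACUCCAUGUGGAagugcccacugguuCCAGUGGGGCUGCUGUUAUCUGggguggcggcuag
Mir215: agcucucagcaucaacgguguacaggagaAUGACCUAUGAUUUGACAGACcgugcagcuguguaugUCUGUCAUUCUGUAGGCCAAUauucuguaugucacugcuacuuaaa
Mir194-1: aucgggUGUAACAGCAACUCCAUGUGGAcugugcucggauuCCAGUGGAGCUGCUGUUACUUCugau

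The base that follows miR-194-5p is A in Mir194-2 and C in Mir194-1, and the base before it is C in Mir194-2 and G in Mir194-1. In a global alignment, Mir192 and Mir215 were identical at 64 of 114 columns and Mir194-1 and Mir194-2 at 54 of 86.

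On GRCm38, Mir194-2 (chr19:6264643-6264728) and Mir192 (chr19:6264844-6264932) lie on the plus strand of chromosome 19 with 115 bases between them. GENCODE release M21 annotates no other gene there, and the nearest are Atg2a on the left and the lincRNA Gm14963 on the right. Mir194-1 (chr1:185313319-185313385) and Mir215 (chr1:185313581-185313692) lie on the plus strand of chromosome 1 with 195 bases between them. Both are antisense to an intron of Iars2, which encodes the mitochondrial isoleucyl-tRNA synthetase. On their own strand Mir194-1 lies in the intron and Mir215 in exon 2 of the non-coding gene 2010103J01Rik. The miR-194 hairpin is thus the upstream one in both clusters.

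**Figure D1:**
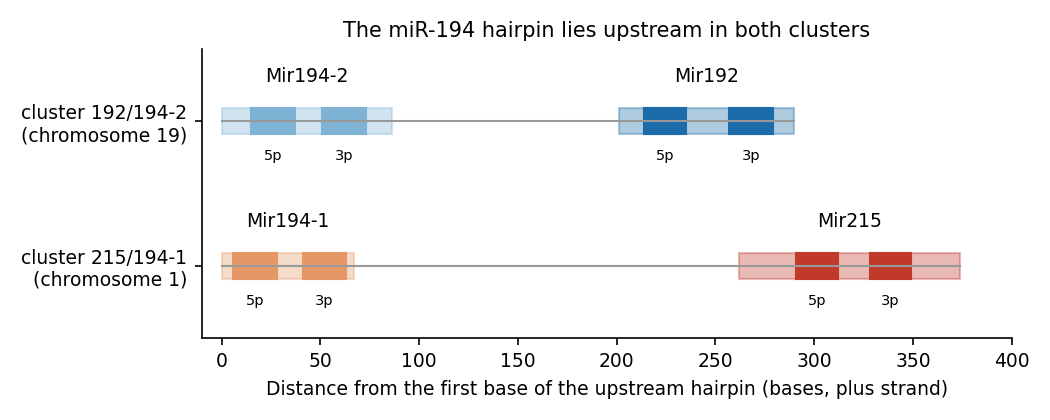
Both clusters to scale, in bases from the start of the upstream hairpin. Pale boxes are hairpins and dark boxes the mature arms. Each cluster begins with a miR-194 hairpin, 115 bases before Mir192 and 195 bases before Mir215.

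miR-192-5p was by far the most abundant member, and every heart held reads of all 4 of the 5p arms. Its level was 2825, 2815, 4121, 3702, 3321 and 3247 CPM in hearts 1 to 6, a mean of 3338 ± 508 CPM (SD, n = 6), from between 13451 and 19948 reads a library. By mean level it was 33rd of 972 mature miRNAs, and its rank ran from 28 to 36 over the hearts. Hearts 3 and 4 were the high ones, and hearts 1 and 2 the low ones.

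miR-194-5p, summed over its copies because their sequence is identical, stood at 167, 168, 174, 197, 172 and 161 CPM in hearts 1 to 6. It was 103rd by mean level, between 101st and 105th in each heart. miR-215-5p stood at 79.0, 109, 93.0, 137, 65.4 and 115 CPM, 127th by mean level and between 116th and 148th. The hearts with the lowest and the highest miR-215-5p, 5 and 4, differed 2.10-fold, against 1.46-fold between the extremes of miR-192-5p and 1.22-fold for miR-194-5p.

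Together the 8 rows held 3613 ± 520 CPM (SD, n = 6), which is 0.361% ± 0.0520 of a library. miR-192-5p made up 92.3% ± 1.07 of this, miR-194-5p 4.85% ± 0.555, miR-215-5p 2.79% ± 0.714, and the 3p rows together 0.0531% ± 0.0179. In a bulk library, few cells with much of a miRNA and many cells with little of it give the same level.

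**Figure D2:**
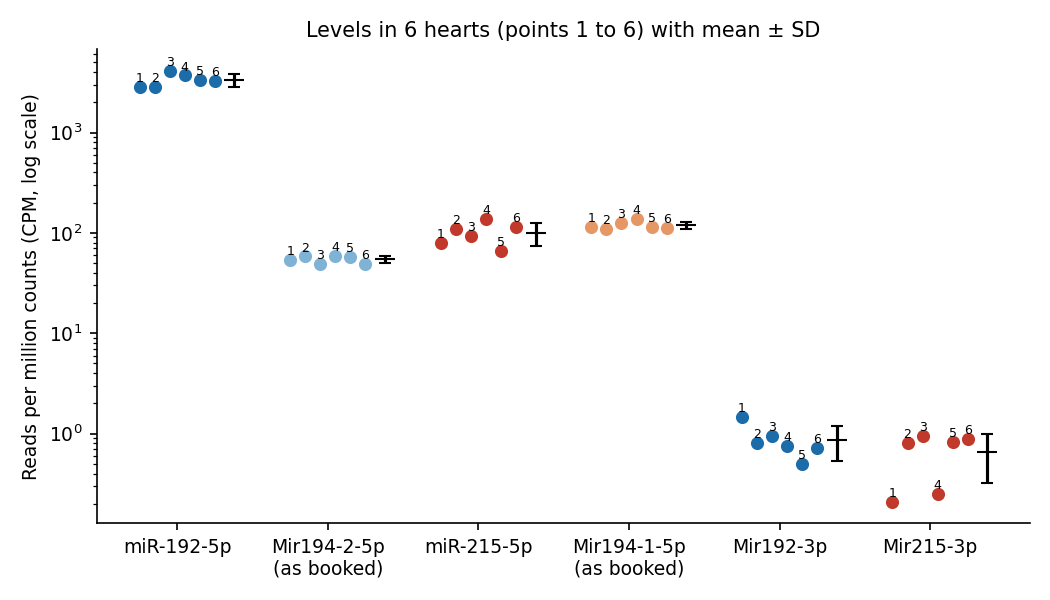
CPM on a log axis of the 5p arms and of the 3p arms of Mir192 and Mir215 in each of 6 hearts (points, numbered by heart), with mean ± SD beside them. miR-192-5p lies far above the other 5p arms, miR-215-5p and Mir194-1-5p overlap, and the 3p arms lie near 1 CPM.

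The cluster of Mir192 and Mir194-2 held far more reads than its paralog. Its 4 rows summed to 2880, 2875, 4170, 3763, 3378 and 3297 CPM in hearts 1 to 6, against 193, 219.9, 219, 275, 182 and 227 CPM for the cluster of Mir215 and Mir194-1. The clusters did not overlap in any heart. The ratio was 15.5-fold (log2 ratio 3.95 ± 0.23, SD, n = 6), between 13.1 and 19.03 within single hearts. In an exact sign-flip permutation test over the 6 hearts (two-sided) p was 0.03125, the smallest that 6 hearts allow, and 0.04375 after Benjamini-Hochberg adjustment over the 7 pairs compared. The sum of each cluster uses the miR-194-5p reads as the authors booked them. miR-192-5p alone, at 3338 ± 508 CPM, made up nearly all of the 3394 ± 506 CPM of its cluster (SD, n = 6).

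Seen by seed family, miR-192-5p was 34.1-fold above miR-215-5p (log2 ratio 5.09 ± 0.41, exact p = 0.03125, adjusted p = 0.04375, higher in 6 of 6 hearts). The ratio was lowest in heart 2 at 25.7 and highest in heart 5 at 50.8. A seed match cannot separate them, so reads with the seed UGACCUA in these hearts were almost wholly miR-192-5p. Different miRNAs ligate to the adapters with different efficiency, so these are ratios of reads, not of molecules.

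Set against miR-194-5p of both copies, miR-192-5p was higher and miR-215-5p lower. miR-192-5p exceeded miR-194-5p of both copies 19.1-fold (log2 ratio 4.26 ± 0.18, exact p = 0.03125, adjusted p = 0.04375, higher in 6 of 6 hearts), with ratios between 16.8 in heart 2 and 23.7 in heart 3. miR-215-5p was below miR-194-5p of both copies in 6 of 6 hearts (log2 ratio -0.83 ± 0.36, exact p = 0.03125, adjusted p = 0.04375). There were between 0.379 reads of miR-215-5p per read of miR-194-5p, in heart 5, and 0.712, in heart 6. With only the reads booked on its own cluster, miR-215-5p was closer to its neighbour, at 0.839 ± 0.195 reads per read of Mir194-1-5p, and above 1 in hearts 4 and 6. On the same footing miR-192-5p stood at 61.9 ± 12.7 reads per read of Mir194-2-5p.

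The identical miR-194-5p reads were booked unevenly on the copies, in a proportion that hardly moved between hearts. Mir194-2-5p received 53.6, 58.2, 48.7, 59.5, 57.3 and 49.4 CPM in hearts 1 to 6, and Mir194-1-5p received 113, 109.7, 125, 137, 115 and 112 CPM. Mir194-2-5p was the lower in 6 of 6 hearts (log2 ratio -1.12 ± 0.16, exact p = 0.03125, adjusted p = 0.04375). Mir194-1 thus held 68.5% ± 2.34 of the miR-194-5p reads (SD, n = 6), from 65.3% in heart 2 to 72.0% in heart 3. Counting error alone gives an SD of 1.61 percentage points at these depths, and the pooled share of 68.4% lay inside the Wilson 95% interval of 5 of 6 hearts, heart 3 being the exception. The treatment of reads that fit several loci is not given in the sources used here, so the level of each copy is uncertain. The copy with more miR-194-5p lies beside miR-215-5p, the less abundant neighbour.

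Uneven booking was general among such miRNAs. Of 18 mature miRNAs with an identical RefSeq sequence at exactly 2 listed loci and a mean of at least 100 reads, the copy with more held between 54.7% and 93.7%, with a median of 78.5%. miR-194-5p was 16th, below miR-125b-5p at 70.6% ± 1.72 and above miR-199a-5p at 56.7% ± 0.999.

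**Figure D3:**
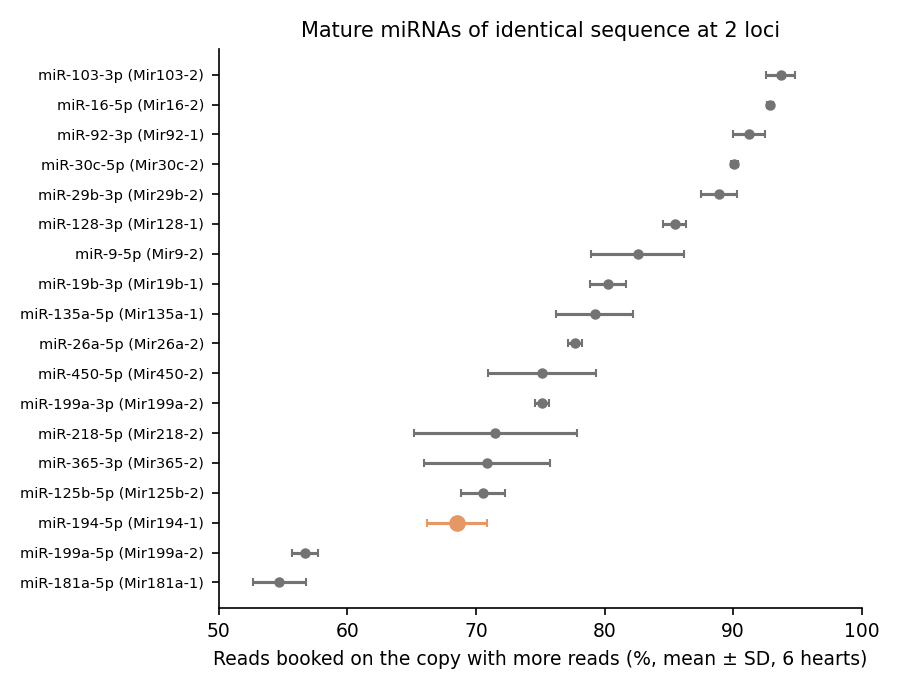
Percent of reads on the copy with more reads (named in brackets) for 18 mature miRNAs of identical sequence at 2 loci, mean ± SD over 6 hearts. miR-194-5p, in orange, is the third from the bottom at 68.5%.

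All 4 hairpins gave their reads almost wholly from the 5p arm. Mir192-3p had 7, 4, 4, 3, 3 and 4 reads in hearts 1 to 6, against 97672 reads of miR-192-5p over the 6 libraries. Mir215-3p had 1, 4, 4, 1, 5 and 5 reads, against 2893 of miR-215-5p. Mir194-2-3p had 6 reads in all, in 4 of 6 hearts, and Mir194-1-3p had 4, in hearts 1 and 5 only. Where a library had none, a count of 0 allows up to 0.756 CPM (3 counts in the shallowest library).

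In the edgeR quasi-likelihood test of 5p against 3p over 214 hairpins, with the library as a block, 48.6% of hairpins were called with more 5p and 40.7% with more 3p. A call needed a ratio of 2-fold or more and an adjusted p below 0.05. miR-192, miR-194 (copies summed) and miR-215 were all among the hairpins with more 5p, with the 5p arm higher in 6 of 6 hearts. The log2 ratios were 11.88 for miR-192, 8.89 for miR-194 and 7.12 for miR-215 (n = 6). Their precision is limited by the 3p arms, which had 25, 10 and 20 reads over the 6 hearts. The largest adjusted p was 1.11e-172, for miR-215, and it rests on a spread that edgeR pooled over all hairpins. By log2 ratio miR-192 was 7th, miR-194 21st and miR-215 31st of the 118 hairpins with more 5p reads.

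Pooled over the hearts, miR-192 gave 3907 reads of 5p per read of 3p (exact binomial 95% interval 2646 to 6037) and miR-215 gave 145 (93.5 to 237). Mir194-2 gave 268 (123 to 731) and Mir194-1 gave 869 (339 to 3191), as booked. All 4 lay above 42.0, the median of hairpins called with more 5p. The intervals cover counting error only and not the spread between hearts, since the hearts were pooled. The reads carry no molecular identifiers, so duplicate reads cannot be told apart.

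The paralogs miR-192 and miR-215 differed in this ratio. The log2 of 5p over 3p was 11.8 ± 0.562 for miR-192 and 7.15 ± 0.907 for miR-215 (SD, n = 6, 0.5 added to each count), and it was higher for miR-192 in 6 of 6 hearts. The difference of 4.66 ± 1.28 had p = 0.03125 in an exact sign-flip permutation test, which was chosen after the counts were seen. This difference is the log2 ratio of the 5p arms, 5.09, less that of the 3p arms, 0.43. The test therefore largely repeats the comparison of the 5p arms and is not separate evidence on the arms. The 3p arms themselves were not told apart. Mir192-3p had 25 reads and Mir215-3p 20 (pooled ratio 1.25, exact binomial 95% interval 0.667 to 2.37, exact p = 0.5, adjusted p = 0.583), higher in 2 hearts and lower in 2.

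For miR-194 the 3p arm is the one whose sequence names its copy, but its reads were too few to order the copies. The 6 reads of Mir194-2-3p and 4 of Mir194-1-3p give a ratio of 1.5 with an exact binomial 95% interval of 0.356 to 7.23 (exact p = 0.63, adjusted p = 0.63). That interval includes the ratio of 0.462 at which the 5p reads were booked.

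**Figure D4:**
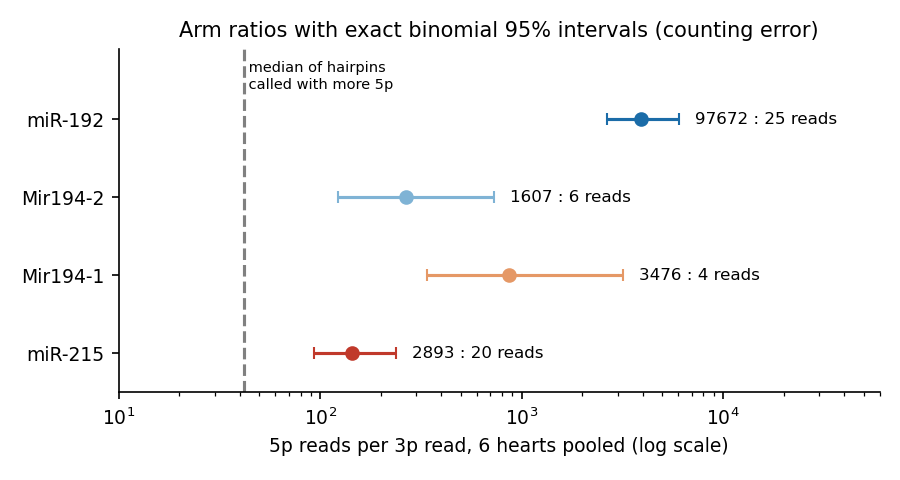
Reads of the 5p arm per read of the 3p arm, 6 hearts pooled, on a log axis, with exact binomial 95% intervals that cover counting error only and the read numbers (5p : 3p) beside them. The dashed line is the median of hairpins called with more 5p, 42.0. miR-192 lies at 3907 and miR-215 at 145, with intervals that do not overlap.

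The members differed in how constant they were between hearts. In a chi-square test of the 6 counts against library totals, 71.8% of the 348 miRNAs that averaged 10 reads or more varied more than counting error allows (adjusted p under 0.05), so a call by itself is common. miR-215-5p had a coefficient of variation (CV, SD over mean of the CPM) of 26.1%, where counting alone gives 4.6%, and was called (adjusted p = 4.26e-34). Its chi-square was 33.9 times its degrees of freedom, and 20.2 times without heart 5. Of the 50 miRNAs nearest to it in mean count, 42 had a lower CV, and their median was 13.3%. miR-192-5p had a CV of 15.2%, where counting alone gives 0.792%, and was called, with its chi-square 348 times its degrees of freedom, and 196 times without heart 3. Of its 50 nearest in mean count, 38 had a lower CV, around a median of 10.5%.

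miR-194-5p was the steady member, with a CV of 7.13% where counting alone gives 3.47%, and 6 of its 50 nearest had a lower one. It was called on library totals (adjusted p = 0.00304) but not after scaling by the trimmed mean of M-values (TMM), which divides the level of heart 4 by 1.08 (adjusted p = 0.516), nor with DESeq2 size factors (adjusted p = 0.274) or without heart 4 (adjusted p = 0.581). After TMM scaling it stood at 167, 175, 177, 182, 168 and 169 CPM in hearts 1 to 6, a CV of 3.34%. On that scale its spread between hearts was not detectable beyond counting error at about 847 reads a library. miR-192-5p and miR-215-5p kept CVs of 14.5% and 24.9% after TMM scaling.

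Neighbours in a cluster were not shown to vary together. Over the 6 hearts, on log2 CPM after TMM scaling, miR-215-5p and miR-194-5p had r = 0.61 (exact permutation p = 0.204, adjusted p = 0.579) and rho = 0.71 (exact permutation p = 0.136, adjusted p = 0.204). Hearts 1 and 5 lay farthest from the median level of miR-215-5p, and r was 0.01 without them. The r of this pair also moved with the scaling. It was 0.77 with DESeq2 size factors (unadjusted exact permutation p = 0.0597) and 0.41 on library totals (unadjusted exact permutation p = 0.461). miR-192-5p and miR-194-5p had r = 0.45 (exact permutation p = 0.386, adjusted p = 0.579) and rho = 0.77 (exact permutation p = 0.103, adjusted p = 0.204), and r = 0.03 without hearts 1 and 3. The paralogs miR-192-5p and miR-215-5p had r = 0.16 (exact permutation p = 0.744, adjusted p = 0.744) and rho = 0.43 (exact permutation p = 0.419, adjusted p = 0.419), and r = 0.12 without hearts 1 and 3. The p-values are two-sided and adjusted over these 3 pairs, and 6 hearts leave room for a wide range of true correlations. On this scale miR-194-5p, summed over both clusters, did not vary detectably beyond counting error. Its correlations therefore could hardly show whether neighbours vary together.

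By Pearson r with each member among 207 other miRNAs averaging 100 reads or more, the most alike over the 6 hearts are given as a description. For miR-192-5p they were let-7i-5p (r = 0.92), miR-122-5p (0.84), let-7g-5p (0.80), miR-3057-5p (0.77) and miR-148a-3p (0.76), while miR-194-5p came 40th and miR-215-5p 82nd. For miR-215-5p they were miR-150-5p (r = 0.96), miR-486-3p (0.94), miR-674-3p (0.89), miR-133a-5p (0.88) and miR-133a-3p (0.84). For miR-194-5p they were miR-484-5p (r = 0.97), let-7d-5p (0.96), miR-28-5p (0.81), miR-133a-5p (0.77) and miR-150-5p (0.73). After TMM scaling, which these r values use, miR-194-5p did not vary detectably beyond counting error. Its r values, the highest of 207, therefore could hardly show shared variation.

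miRNAs that mark liver, epithelium and pancreas were low or high in some of the same hearts. The liver list (miR-122 and miR-802, both arms, 4 of 4 listed) summed to 11.8, 18.1, 77.1, 87.5, 52.8 and 54.6 CPM in hearts 1 to 6, low in hearts 1 and 2 and high in hearts 3 and 4, the hearts in which miR-192-5p was also low and high. Its leading member miR-122-5p, the main miRNA of hepatocytes, held a mean of 44.3 of the 50.3 CPM of the list, so the sum mostly follows it. miR-122-5p ranged from 9.03 to 74.4 CPM, and miR-802-3p was at 0 in 2 hearts. miR-802-5p was highest in heart 4 at 6.81 CPM. In heart 3, at 1.66 CPM, it lay below hearts 5 and 6, at 3.33 and 2.14 CPM. The mean level of miR-192-5p was 66.4 times that of the whole liver list, and the part of that list in the spread of miR-192-5p was not tested.

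Heart 4, highest for miR-194-5p and miR-215-5p, was also highest for the epithelial list (10 of 10 listed) at 429 CPM, against between 164 and 233 CPM in the other 5 hearts. Most of that excess was miR-182-5p at 208 CPM in heart 4, followed by miR-183-5p at 66.8 CPM. miR-96-5p and miR-429-3p were also highest in heart 4, at 2.02 and 9.83 CPM. Heart 4 led only narrowly, on library totals, for miR-200b-3p, miR-200c-3p and miR-141-3p. miR-200b-3p was at 13.9 CPM against 12.8 in heart 5, and miR-200c-3p at 4.79 CPM against 4.28 in heart 6. miR-141-3p was at 42.1 CPM against 41.1 in heart 2. By contrast, miR-203-3p and miR-200a-3p were highest in heart 5, at 95.7 and 13.3 CPM, and miR-205-5p in heart 6. The epithelial miR-205-5p stayed between 0.166 and 2.86 CPM, and miR-96-5p was at 0 in 2 hearts. The pancreas list (4 of 4 listed) summed to 29.2 CPM in heart 4 and to between 0.630 and 2.33 CPM in the others, with miR-216a-5p at 0 in 5 hearts. On library totals the heart muscle list was highest in heart 4 as well, at 106440 CPM, against between 94127 and 101704 CPM in the others. TMM scaling divides the level of heart 4 by 1.08 and that of heart 2, at 101704 CPM, by 0.960, which places heart 2 above heart 4. The part of these lists in the levels of miR-194-5p and miR-215-5p was not tested. Without heart 4, miR-192-5p was still above miR-215-5p (log2 ratio 5.16) and miR-215-5p below miR-194-5p (log2 ratio -0.90).

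**Figure D5:**
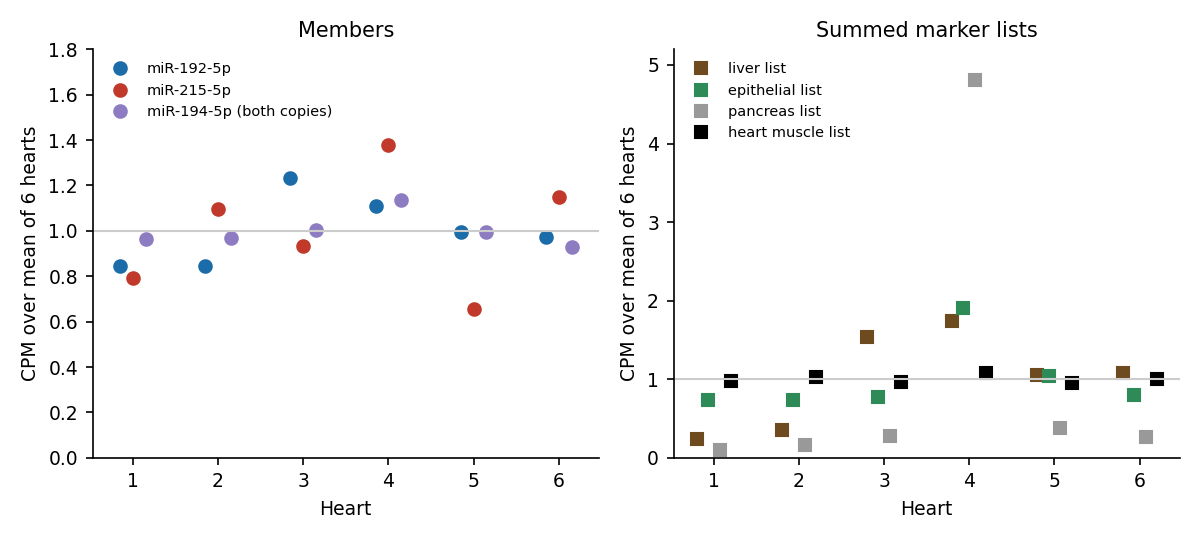
CPM of each heart over the mean of the 6 hearts, for miR-192-5p, miR-215-5p and miR-194-5p (left) and for the summed liver, epithelial, pancreas and heart muscle lists (right, on a wider axis). miR-194-5p stays near 1, miR-215-5p spans the most, and the liver list is low in hearts 1 and 2.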

How the data were processed

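Each deposited file gives raw read counts by arm, locus and strand, whole numbers without normalization by the authors. The submitters' processing notes name the build GRCm38 and the tools edgeR and DESeq, with no role for either. An aligner and the handling of multi-mapping reads were not given in the sources used here. Per the labels' protocols, libraries were made with a TruSeq small RNA kit from Trizol RNA.

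Of 1102 rows, 1026 were sense. Of 76 antisense rows, 33 were assigned to the GENCODE hairpin on the opposite strand and held a mean of 13.2% of the counts of a library. The other 43, at most 0.000756% of a library, were left out of the totals. Rows of one mature name were summed, which gave 972 mature miRNAs. Arms were compared with edgeR 4.0.16 (quasi-likelihood, library block, hairpins with a mean of at least 10 reads), in R 4.3.3. DESeq2 1.42.0 served as an alternative. Other tests used SciPy 1.17.1, with a prior count of 0.5 for log2 ratios and 1 for log2 CPM. Both tests across many miRNAs were tested on simulated data.

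The text names every member, the 5 most alike miRNAs of each, and the lists for liver, epithelium, pancreas, p53 and heart muscle as results need them. Members and lists were chosen with earlier results of these data known. The labels number the libraries but name no animals, so p-values concern the spread between these samples. Leaving out hearts, other scalings, filters and priors were tried as alternatives.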

Additional observations from a re-analysis of the deposited data

Results flagged for a closer look

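miR-194-5p in heart 4 stood at 197 CPM, and the other 5 hearts between 161 and 174 CPM, and its gap to the next heart was 0.641 of the whole range, past the 95% limit of Dixon's test for 6 samples. Chance flags about 1 in 20 such groups, and 15 groups of member values and ratios were examined. After TMM scaling heart 4 stood at 182 CPM and the other hearts between 167 and 177 CPM.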

How the results depend on the processing

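The calls of more 5p reads for miR-192, miR-194 and miR-215 held with DESeq2, with no minimum count, with loci kept apart, with no replicate block and without each heart in turn. With no replicate block the log2 ratio of miR-215 was 7.15, with an adjusted p of 7.28e-17. With single hearts left out, at least 188 hairpins were called in all, against 191. Spread calls of miR-192-5p and miR-215-5p held under each alternative run, although without single hearts the chi-square over its degrees of freedom ran from 196 (without heart 3) to 435 for miR-192-5p and from 20.2 (without heart 5) to 41.6 for miR-215-5p. For miR-194-5p the chi-square over its degrees of freedom was 3.82 on library totals, 0.91 after TMM scaling and 1.37 with DESeq2 size factors, and it ran from 0.788 without heart 4 to 4.78 when single hearts were left out. The pair ratios of the 5p arms and of the clusters held with a prior count of 2 and as ratios of mean CPM. Those of the 3p arms, undecided in each test, moved more. The log2 ratio of Mir194-2-3p over Mir194-1-3p was 0.53, then 0.19 with a prior count of 2 and 0.74 from mean CPM. For Mir192-3p over Mir215-3p these values were 0.43, 0.27 and 0.40. Without heart 4, chosen after the data were examined, the log2 ratios were 5.16 for miR-192-5p over miR-215-5p, 4.26 for miR-192-5p over miR-194-5p, -0.90 for miR-215-5p over miR-194-5p, -1.11 for Mir194-2-5p over Mir194-1-5p and 3.99 between the clusters, each with exact p = 0.0625, the smallest that 5 hearts allow. Depth limits the 3p arms, at 25 reads or fewer each, and reads that end within the identical miR-194-5p sequence cannot be divided between its copies.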

Other observations

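miR-34, the miRNA family most closely tied to p53, to which the miR-192, miR-194 and miR-215 clusters also respond, stood well below miR-192-5p. Its 5 listed arms summed to between 152 and 191 CPM, highest in heart 1 and lowest in heart 6. miR-34a-5p made up most of it at 139 ± 18.2 CPM (SD, n = 6), followed by miR-34c-5p at 25.9 ± 5.64 CPM. Both arms of miR-34b stayed below 3 CPM in every heart.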
